A study of Homo sapiens with 8 samples.

Results

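Of the 8 RNA sequencing libraries of this experiment, 2 stood apart from the other 6 in their expression of interferon-stimulated genes, and what differed between these 2 states of the culture across all genes is described here. The pair was DMSO replicate 3 and DPT replicate 2. It was found from the data and not from the labels. A principal component analysis was made of log2 CPM, the counts scaled to a common library total and logged with a prior count of 2. On its first axis, which held 36.8% of the variance, DMSO replicate 3 scored 40.76 and DPT replicate 2 scored 29.26, whereas the other 6 libraries scored between -25.6 and -1.02. All 8 libraries came from H2452, an established human cell line of biphasic pleural mesothelioma, labelled wt. The cells had been kept for 48 h in 20 nM DPT (deoxypodophyllotoxin, a lignan from plants that inhibits the assembly of microtubules) or in the DMSO solvent, at no more than 0.01%, with 4 libraries for each treatment. The other libraries were DMSO replicates 1, 2 and 4 and DPT replicates 1, 3 and 4. Thus the pair held 1 library of each treatment, and treatment was a covariate in its comparison with the rest. H2452 is a single line, so nothing here bears on other mesotheliomas.

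As background, type I and type III interferons act through surface receptors and STAT and IRF factors to switch on a large set of antiviral genes, whose promoters carry the interferon-stimulated response element. Inflammatory chemokines, cytokines and the mitochondrial superoxide dismutase SOD2 are classical targets of NF-kB, which is driven by cytokines such as interleukin 1 and tumour necrosis factor and by sensors of foreign nucleic acid. Bone morphogenetic proteins (BMPs) and other ligands of the TGF-beta family signal through SMAD proteins and switch on the ID genes and the inhibitory SMADs. Genes of mitosis are expressed in the last part of the cell cycle under the DREAM and FOXM1 complexes, which act at CHR and CCAAT elements of their promoters.

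Library totals ran from 14964432 to 17205391 counts, with 17205391 in DMSO replicate 3 and 16524401 in DPT replicate 2. Of 20323 genes in the deposited table, 12648 passed a filter on low counts. The biological coefficient of variation, the replicate spread left after treatment, pair and their interaction, was 5.54%. Mitochondrial transcripts took 4.20% of counts in DMSO replicate 3 and 3.77% in DPT replicate 2, both inside the range of 3.76% to 4.41% over the other libraries. In bulk RNA, fewer cells in a state and less RNA per cell cannot be told apart. The labels name no culture day, passage or batch, so any such difference between the pair and the rest cannot be told apart from the state itself. The series design calls the replicates biological, but no label ties them to separate cultures, so p-values measure only the spread between these samples.

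The interferon genes that gave the pair its name were low in both of its libraries. Of 184 tested genes on a list of interferon-stimulated genes, 156 lay below all 6 other libraries in both members of the pair and 3 lay above. Of all tested genes, 17% lay below and 17.4% above. The list had a median difference of -1.03 on the log2 scale. MX2, an antiviral GTPase, read 497.6, 498.7 and 495.7 CPM in the other DMSO libraries and 454.5, 449.4 and 452.2 CPM in the other DPT libraries, against 57.6 CPM in DMSO replicate 3 and 34.5 CPM in DPT replicate 2. Among members with at least 5 CPM, the lowest by the fitted difference were BATF2 (-3.53), HSH2D (-3.51), MX2 (-3.38), IFI44L (-3.25) and LGALS9 (-3.02). These values chose the pair and carry no test. Their ligands were scarce: IFNB1, interferon beta, had 1, 6 and 9 counts in the other DMSO libraries and 40, 28 and 30 counts in the other DPT libraries, and 3 counts in each library of the pair. IFNL1, a lambda interferon, had 0 counts in both libraries of the pair, and 1, 2 and 2 counts in the other DMSO and 9, 10 and 15 counts in the other DPT libraries. At this depth the 3 counts in DMSO replicate 3 lay within the range of the other DMSO libraries, whereas the 3 counts in DPT replicate 2 lay under all 3 other DPT libraries. The 5 tested members of the ligand and receptor list, all receptor chains, overlapped the other libraries: IFNAR1 read 136.1 CPM in DMSO replicate 3 and 121.2 CPM in DPT replicate 2, against 105.5 to 126.7 CPM in the rest, and IFNGR2 read 66.5 and 64.0 CPM against 61.1 to 73.2 CPM.

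To look beyond the interferon genes, a gene was counted as higher or lower where its fitted difference was at least 2-fold, each library of the pair was displaced in that direction from the 3 others of its treatment, and both lay outside the range of all 6. By this count 108 genes (0.854% of those tested) were higher in the pair and 330 (2.61%) were lower. Interferon-type genes, taken as those on the interferon, sensor and MHC lists or with a deposited ontology term that names interferon or a response to virus, made up 529 of the tested genes, and they held 3 of the higher and 109 of the lower genes. Beyond them, 105 genes were higher and 221 lower, so that 326 of the 438 counted genes fell outside this definition. It rests on lists and terms alone, and whether genes outside it respond to interferon was not tested. Many of the 326 had low levels: with a mean of at least 5 CPM, 57 of 58 higher and 95 of 192 lower genes were beyond the interferon type, and with the deposited FPKM 40 of 41 and 62 of 148. With no bound on size, 2204 genes (17.4%) lay above and 2144 (17% of those tested) below all 6 other libraries. Just inside the 2-fold line were SH2B2 (-1.001), ZNF763 (1.003) and OR2W3 (1.003), and just outside were BCORL1 (-0.999) and FAM228B (0.998). As the pair was picked on the expression of all genes, these counts describe it and are no test.

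Of all tested genes, 75.6% were displaced in the same direction in both libraries. Of 631 genes at least 2-fold apart in DMSO replicate 3 from the mean of its 3 fellow DMSO libraries, 90.5% were displaced in the same direction in DPT replicate 2 from its own fellows. Of 675 genes at least 2-fold apart in DPT replicate 2, 89.5% were displaced in the same direction in DMSO replicate 3. The size of 2-fold was passed in both by 78 genes upwards and 234 downwards, and in opposite directions by 6. Over all tested genes the 2 displacements, which share no library, had a Pearson correlation of 0.676, or 0.629 without interferon-type genes, as a description across genes that are not independent. Among counted interferon-type genes, 24 of 112 were farther out in DMSO replicate 3 than in DPT replicate 2. Among the other counted genes it was 161 of 326.

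**Figure D1:**
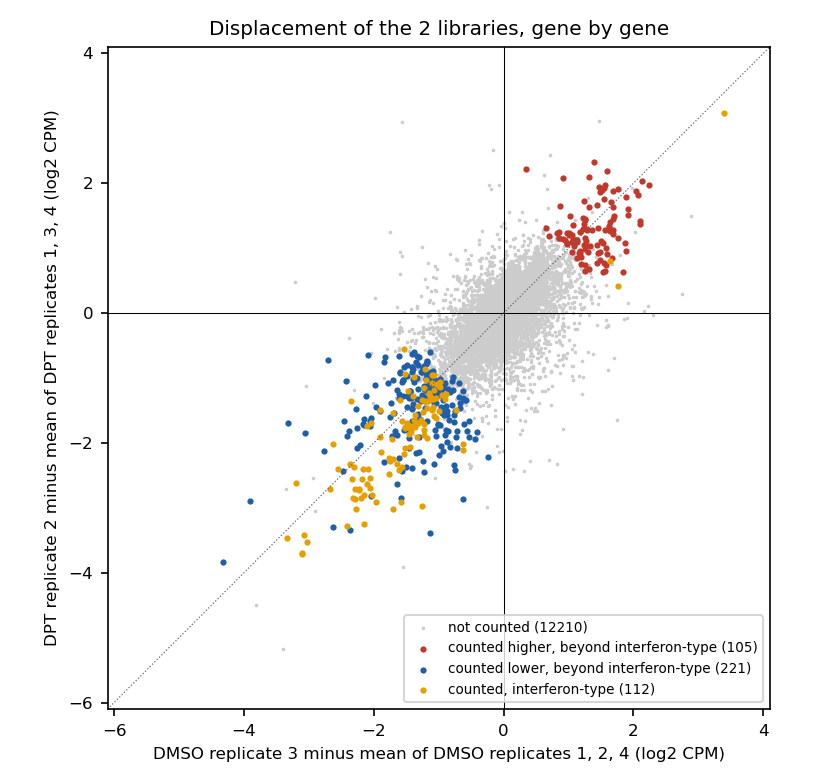
Each point is a tested gene; the horizontal axis is the log2 CPM of DMSO replicate 3 minus the mean of DMSO replicates 1, 2 and 4, and the vertical axis that of DPT replicate 2 minus the mean of DPT replicates 1, 3 and 4. The counted genes, coloured by direction and type, lie in the lower left and upper right, with 221 lower and 105 higher genes beyond the interferon type and 112 of the interferon type.

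Promoter sequences of the genes on which the groups turn are shown from RefSeq (build GRCh38.p14), 5′ to 3′ on the strand of the gene, with matches to a searched motif in capitals. For the interferon genes the motif was the core of the interferon response element, TTTC and TTTC with any 2 bases between them, searched on both strands. IFI44L (chr1:78620198-78620497, plus strand) is shown because it had the largest difference among lower interferon-type genes with a match and at least 5 CPM. Its 2 matches lie on the opposite strand in a repeated stretch.
IFI44L: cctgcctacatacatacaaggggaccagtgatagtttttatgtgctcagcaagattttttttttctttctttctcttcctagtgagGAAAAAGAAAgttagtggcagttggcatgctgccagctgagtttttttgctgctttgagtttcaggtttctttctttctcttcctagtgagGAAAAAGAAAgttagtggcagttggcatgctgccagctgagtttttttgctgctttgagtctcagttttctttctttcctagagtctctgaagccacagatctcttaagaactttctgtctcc
For the NF-kB list the motif was GGG and TTTCC with any 2 bases between them, on both strands, and the members with the largest difference among those with a match and at least 5 CPM are shown, CXCL2 (chr4:74099146-74099445, minus strand) and IL6 (chr7:22726950-22727249, plus strand).
CXCL2: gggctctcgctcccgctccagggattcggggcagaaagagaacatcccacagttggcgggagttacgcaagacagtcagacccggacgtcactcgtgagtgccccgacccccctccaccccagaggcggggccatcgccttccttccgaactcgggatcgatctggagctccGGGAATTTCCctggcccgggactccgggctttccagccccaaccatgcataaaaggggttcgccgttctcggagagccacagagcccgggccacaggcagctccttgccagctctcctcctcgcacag
IL6: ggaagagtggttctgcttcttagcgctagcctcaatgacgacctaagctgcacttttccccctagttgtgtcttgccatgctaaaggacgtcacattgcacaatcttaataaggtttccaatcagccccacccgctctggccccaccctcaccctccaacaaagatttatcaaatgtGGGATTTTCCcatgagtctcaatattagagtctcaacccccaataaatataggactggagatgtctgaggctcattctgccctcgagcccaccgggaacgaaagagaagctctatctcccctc
For mitosis the motifs were the CHR element TTTGAA and the CCAAT box, on both strands, shown likewise in the mitosis genes with the largest differences and a CHR match. ANLN (chr7:36389612-36389911, plus strand) holds CHR matches alone, and CDC20 (chr1:43358731-43359030, plus strand) holds both motifs.
ANLN: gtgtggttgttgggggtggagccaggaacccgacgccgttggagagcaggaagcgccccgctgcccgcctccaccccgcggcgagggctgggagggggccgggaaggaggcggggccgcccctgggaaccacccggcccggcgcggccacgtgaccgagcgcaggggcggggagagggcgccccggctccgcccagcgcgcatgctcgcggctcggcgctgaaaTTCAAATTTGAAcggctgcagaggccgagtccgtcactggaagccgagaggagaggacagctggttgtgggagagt
CDC20: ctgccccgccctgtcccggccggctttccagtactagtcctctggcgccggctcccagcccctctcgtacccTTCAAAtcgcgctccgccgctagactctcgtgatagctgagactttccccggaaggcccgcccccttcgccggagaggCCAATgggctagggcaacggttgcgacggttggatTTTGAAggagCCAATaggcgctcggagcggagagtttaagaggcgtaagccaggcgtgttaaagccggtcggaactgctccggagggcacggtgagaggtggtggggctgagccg

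Promoters of 300 bases were matched by symbol to 9842 of the tested genes, among them 295 of the 438 counted ones. The interferon core stood in 35 of 72 promoters of lower interferon-type genes (48.6%), in 10 of 148 promoters of the other lower genes (6.76%) and in 1 of 75 promoters of higher genes (1.33%), against 2.93% of all tested genes with a promoter. The 10 other lower genes with it were DDO, TNFSF14, SYNPO2, GCA, KIF1A, RSPO3, PCDHAC2, TRIM69, BBC3 and PCDHGB2, named here because they hold the motif. The NF-kB motif stood in 10 of 27 promoters of the NF-kB list (37.0%) and in 7 of 148 promoters of other lower genes (4.73%), against 2.15% of all tested genes with a promoter. For the mitosis list, 28 of 37 promoters held CHR (75.7%, against 9.69%) and 28 of 37 held a CCAAT box (75.7%, against 36.8%). These lists consist of known targets of the factors in question, so the shares describe the lists. The core of the interferon element and the NF-kB motif share the letters TTTC, and a promoter could hold both. A match is a run of letters and no measured site.

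Inflammatory genes and complement genes had the lowest medians among lists with at least 12 tested members, next to the interferon-stimulated genes at -1.03. The NF-kB list of cytokines, chemokines and target genes had a median difference of -1.07 (2.10-fold lower) over 34 tested members, and 30 of them were lower in both libraries of the pair than in their fellows. Of all tested genes 37.7% were lower in both and 37.9% higher in both, which is the background for each such count below. Counted as lower were 14 members and as higher 0, beside 2.61% and 0.854% of all tested genes. These 2 shares are the background for each number of counted members below. SOD2 (ENSG00000112096, GRCh38 chr6:159669057-159745186), the superoxide dismutase of mitochondria, had the largest difference of the list at 5 CPM or more. It read 1304, 1370 and 1257 CPM in DMSO replicates 1, 2 and 4 and 1217, 1326 and 1338 CPM in DPT replicates 1, 3 and 4, against 235 CPM in DMSO replicate 3 and 240 CPM in DPT replicate 2, a difference of -2.45 with an SD of 0.07 within treatments among the other 6. The 2 libraries lay at nearly 1 level, and the 6 others lay far above them without overlap.

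CXCL8, the chemokine interleukin 8, read 55.9, 68.5 and 56.0 CPM in the other DMSO libraries and 130.1, 160.7 and 152.2 CPM in the other DPT libraries, and 14.3 and 46.3 CPM in the pair (-1.82). It was higher in DPT than in DMSO both inside and outside the pair, so that DPT replicate 2 came near the untreated level of the other libraries. CXCL2, a neutrophil chemokine, read 7.52, 10.0 and 7.91 CPM in the other DMSO and 12.5, 16.5 and 14.5 CPM in the other DPT libraries, and 1.52 and 4.02 CPM in the pair (-2.08). The cytokine genes IL6 (-1.95), IL1B (-1.83) and LIF (-1.27), the adhesion molecule ICAM1 (-1.39) and the chemokine CXCL1 (-1.56) were lower too. These 5 were named after their values were seen, and IL6 and IL1B are of the interferon type by their ontology terms. ICAM1 read 531.9 to 597.5 CPM in the other libraries, and 191.6 and 242.3 CPM in the pair. Without the 11 interferon-type members, the median of the NF-kB list was -1.24.

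Complement and acute-phase genes, most of them secreted plasma proteins, had a median difference of -1.07 over 18 tested members. Of these, 9 were counted as lower and 0 as higher, beside 2.61% and 0.854% of all tested genes. Without the 5 interferon-type members the median was -0.92. C4A, a complement component whose reads cannot be separated well from those of its near-identical neighbour C4B, read 533.3, 500.9 and 535.0 CPM in the other DMSO and 350.2, 304.8 and 348.5 CPM in the other DPT libraries, and 161.5 and 114.4 CPM in the pair. C3, the central complement protein, named after its values were seen, read 853.8 to 859.6 CPM and 427.9 to 474.2 CPM in the others of the same treatments, and 291.7 and 217.5 CPM in the pair. SERPING1, the inhibitor of C1, was interferon-type by its terms and read 5.70 to 8.54 CPM outside the pair and 1.752 and 1.14 CPM inside. In each case both libraries of the pair lay below all others, DPT replicate 2 below DMSO replicate 3.

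The remaining genes with the lowest differences beyond the interferon type were of several kinds. TGM2 (ENSG00000198959, chr20:38127387-38166578), a transglutaminase that cross-links proteins, read 38.9, 37.7 and 40.4 CPM and 47.3, 42.1 and 41.7 CPM in the other DMSO and DPT libraries, against 4.56 CPM in DMSO replicate 3 and 12.1 CPM in DPT replicate 2. THEMIS2, a signalling adaptor known from leukocytes, read 7.86 to 11.2 CPM in the others and 1.46 and 0.90 CPM in the pair (-2.93). DSP (ENSG00000096696, chr6:7541575-7586717), the desmosomal linker desmoplakin, read 73.9 to 75.5 CPM in the other DMSO and 84.8 to 89.6 CPM in the other DPT libraries, and 24.2 and 18.6 CPM in the pair. DSP was the only counted member among 32 tested genes of cell adhesion and junctions, a list with a median of -0.06. PLEKHA4, a lipid-binding adaptor, STEAP2, a metalloreductase, KIF21B, a kinesin motor, and C1QTNF1, a secreted protein, had differences of -2.20, -1.97, -1.86 and -1.78. ODF3B (-2.47), FAM83A (-1.97) and GRIP2 (-1.88) were also among the 15 lowest at 5 CPM or more, as were SOD2, CXCL2, CXCL8 and HRK.

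H2AC6, a core histone gene, read 57.1 to 63.0 CPM in the other DMSO and 44.4 to 49.3 CPM in the other DPT libraries, and 25.8 and 24.6 CPM in the pair (-1.06). Most histone transcripts lack a poly(A) tail and are poorly captured by poly(A) selection. On the list of cell cycle inhibitors and quiescence genes, 17 of 25 members were lower in both libraries (37.7% of all genes), and the median was -0.31. The 1 counted member was KLF2, a zinc finger factor that was higher (1.22). CDKN1A, the cyclin kinase inhibitor p21, read 17.3 to 20.4 CPM in the other DMSO and 43.2 to 45.3 CPM in the other DPT libraries, and 13.1 and 32.1 CPM in the pair. It lay below its own treatment in each library, but the 32.1 CPM of DPT replicate 2 lay above the DMSO libraries.

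Genes of the integrated stress response, in which ATF4 raises genes of amino acid supply, had a median of -0.45. Of 29 tested members 26 were lower in both libraries of the pair, and 20 lay below all 6 others, beside 17% of all genes. Counted as lower were NUPR1 (-1.118), TRIB3 (-1.10) and CEBPB (-1.09), the last of these named after its values were seen. TRIB3, a pseudokinase, read 79.8 to 87.0 CPM and 132.3 to 142.5 CPM outside the pair in DMSO and DPT, and 36.8 and 66.8 CPM inside it. The unfolded protein response, a related stress pathway of the endoplasmic reticulum, had a median of 0.06 over 23 members and 0 counted. Immediate-early genes had a median of -0.39 over 26 members, with 20 lower in both libraries (37.7% of all genes). Only 5 of the 26 lay below all 6 others, beside 17% of all genes. DUSP6, a phosphatase of ERK, was the 1 counted member and read 32.1 to 36.6 CPM and 57.5 to 65.1 CPM outside the pair against 12.9 and 32.0 CPM inside. GDF15, a stress cytokine on the p53 target list, had a difference of -1.71 in a list whose median was -0.11, with 1 member counted as higher and 2 as lower. The higher one was TP53I3, an oxidoreductase, with 15.3 and 13.4 CPM in the pair against 5.08 to 7.59 CPM outside (1.13).

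On the lipid lists, SCD (ENSG00000099194, chr10:100347124-100364834), the desaturase that makes oleate, read 744.8, 724.9 and 736.4 CPM in the other DMSO libraries and 484.0, 442.2 and 449.3 CPM in the other DPT libraries, and 189.0 and 168.8 CPM in the pair. SREBF1, the gene of its transcription factor SREBP-1, had a difference of -1.09. These were the 2 counted members among 19 fatty acid synthesis genes, whose median was -0.20. Of all tested genes 2.61% were counted as lower. Cholesterol synthesis genes had 0 counted members among 25 and a median of -0.12, with DHCR7 farthest out at -0.69. In the cell death list 21 of 28 members were lower in both libraries (37.7% of all genes), with a median of -0.30, or -0.23 without the 12 interferon-type members. HRK, a BH3-only activator of apoptosis, read 4.29 to 5.22 CPM and 9.07 to 9.36 CPM outside the pair, and 1.64 and 2.34 CPM inside it. CASP1, the inflammatory caspase, was interferon-type and read 13.4 to 20.2 CPM outside and 3.503 and 2.70 CPM inside.

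**Figure D2:**
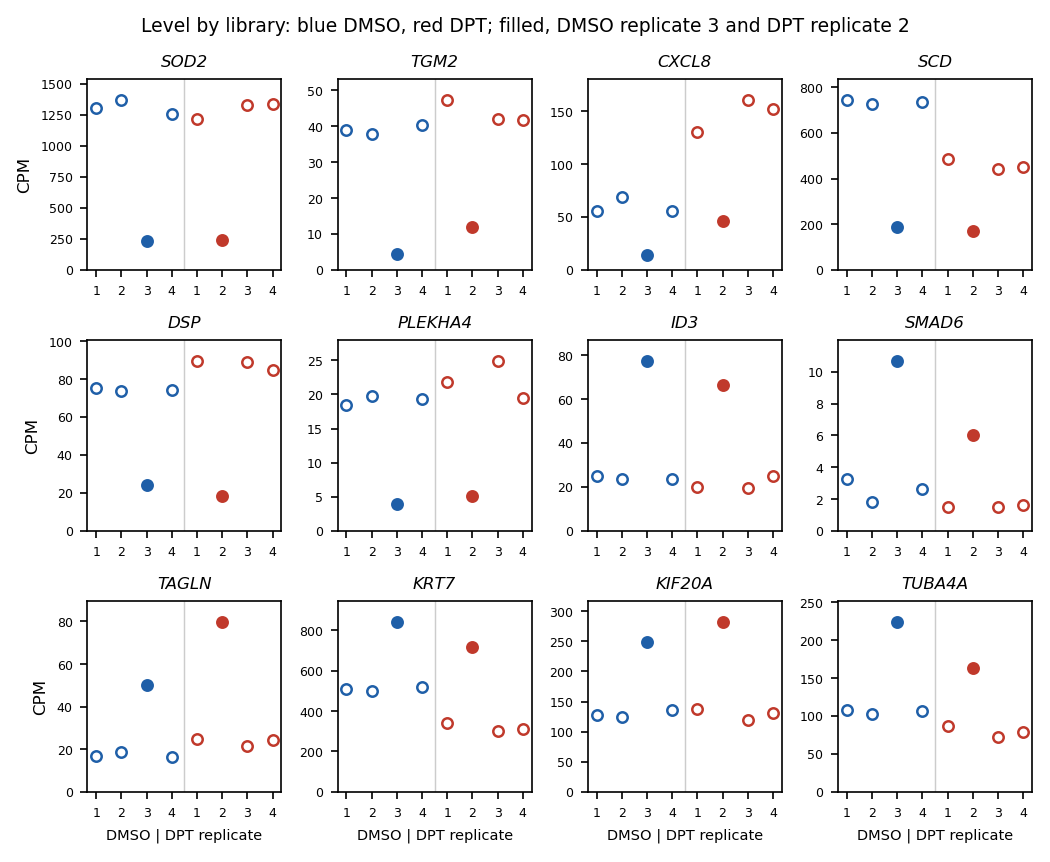
Level in CPM of 12 genes in each of the 8 libraries, by treatment and replicate number; filled points are DMSO replicate 3 and DPT replicate 2 and open points are the other 6. SOD2, TGM2, CXCL8, SCD, DSP and PLEKHA4 lay below the others in both filled points, and ID3, SMAD6, TAGLN, KRT7, KIF20A and TUBA4A lay above.

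Among the genes that were higher, the BMP and TGF-beta target list stood out by single members. Its median was 0.26 over 21 tested genes. Counted as higher were 6 of them and as lower 0, beside 0.854% and 2.61% of all tested genes. SMAD6 (ENSG00000137834, chr15:66702228-66782848), the inhibitory SMAD of BMP signalling, read 3.25, 1.83 and 2.64 CPM in the other DMSO and 1.53, 1.495 and 1.66 CPM in the other DPT libraries, and 10.7 and 6.05 CPM in the pair (2.00). ID3 (ENSG00000117318, chr1:23557918-23559794), an inhibitor of helix-loop-helix factors, read 24.9, 23.5 and 23.4 CPM and 19.8, 19.6 and 24.8 CPM in the others, and 77.4 and 66.6 CPM in the pair (1.67). All 4 ID genes were higher: ID4 by 1.85, and ID1 and ID2, named after their values were seen, by 1.55 and 1.199. ID1 read 44.7 to 55.5 CPM and 30.5 to 35.9 CPM outside the pair and 132.1 and 105.7 CPM inside. The signal transducer SMAD9, also named afterwards, read 4.00 to 4.88 CPM outside and 14.4 and 13.6 CPM inside. ATOH8, a helix-loop-helix factor, was higher by 1.73. Neither ATOH8 nor ID4 is on the list. As 6 of its members were counted, not all the other genes named here as higher are its members either. INHBA (1.07), a subunit of activin, and PMEPA1 (1.01) were also counted as higher, both named after their values were seen. INHBA is of the interferon type by its terms, and its 10.25 CPM in DPT replicate 2 lay barely above the 10.22 CPM of DPT replicate 3. GREM1, a secreted antagonist of BMPs that is on no list, read 16.9 to 19.3 CPM and 31.7 to 35.5 CPM outside the pair and 42.0 and 62.0 CPM inside, and was also named after its values were seen.

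Some genes of the actin cytoskeleton and the collagen gene COL1A1 were higher. Matrix remodelling enzymes were not as a list, with a median of 0.03 over 23 tested members, 0 counted, and 8 higher and 5 lower in both libraries. TAGLN (ENSG00000149591, chr11:117199321-117204782), the smooth muscle protein transgelin, read 16.7, 18.6 and 16.4 CPM in the other DMSO and 24.8, 21.5 and 24.4 CPM in the other DPT libraries, and 50.4 and 79.8 CPM in the pair (1.66). TPM1, tropomyosin 1, read 191.1 to 246.8 CPM outside the pair, and 467.1 and 455.4 CPM inside it, 2.18-fold higher. With MYL9, a myosin light chain named after its values were seen, they were the 3 counted members among 32 SRF and YAP targets. All 3 were counted as higher, beside 0.854% of all tested genes. Of the 32 targets, 18 were higher in both libraries, beside 37.9% of all genes. Their median was 0.17, or 0.09 without the 3 interferon-type members. Of the sarcomatoid and mesenchymal markers, 23 of 27 were higher in both libraries (37.9% of all genes) and the median was 0.36. TAGLN, COL1A1 and INHBA were counted as higher, beside 0.854% of all tested genes. COL1A1, the main chain of collagen I, read 12.2 to 13.7 CPM and 6.10 to 7.22 CPM outside the pair and 27.3 and 14.7 CPM inside. COL1A2, its partner chain, overlapped the others, with 352.3 CPM in DMSO replicate 3 and 175.1 CPM in DPT replicate 2 against 299.7 to 322.2 CPM and 103.6 to 151.4 CPM. RFLNB, a filamin-binding regulator of actin, was higher by 1.78. THBS1, the matrix protein thrombospondin 1, which is on no list and was named after its values were seen, read 371.8 to 393.6 CPM and 187.9 to 207.5 CPM outside the pair and 951.5 and 603.9 CPM inside.

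Epithelial and mesothelial markers were not lower as a list. KRT7 (ENSG00000135480, chr12:52232520-52252186), a keratin of simple epithelia and mesothelium, read 499.6 to 518.2 CPM and 300.0 to 342.5 CPM outside the pair, and 842.6 and 717.0 CPM inside it. KRT18 read 1448 and 911.9 CPM in the pair, each above its own treatment, against 1047 to 1103 CPM in the other DMSO and 638.1 to 731.8 CPM in the other DPT libraries. Mesothelin (MSLN) read 17.6 and 14.4 CPM in the pair and 10.4 to 17.6 CPM elsewhere, an overlap. Over the 22 tested mesothelial and epithelioid markers the median was 0.07, with 9 higher in both libraries and 5 lower. The 1 counted member, KRT5 (2.09), lay at 3.04 and 2.82 CPM in the pair and 0.13 to 1.22 CPM elsewhere, and was named after its values were seen. VIM, vimentin, read 6413 and 8069 CPM in the pair, each above its own treatment, against 4820 to 4991 CPM in the other DMSO and 6918 to 7149 CPM in the other DPT libraries.

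The other genes with the highest differences were of several kinds. ANXA8, an annexin, read 3.45 to 5.996 CPM outside the pair, and 22.4 and 21.9 CPM inside (2.11). ANXA8L1 is a near-identical copy of it (1.97), so the division of reads between both is uncertain. AKR1B10 (ENSG00000198074, chr7:134527592-134541408), an aldo-keto reductase, read 21.4 to 24.3 CPM and 5.80 to 8.02 CPM outside the pair in DMSO and DPT, and 68.9 and 31.5 CPM inside. ALDH3A1, an aldehyde dehydrogenase (1.85), and CYP1B1, a cytochrome P450 (1.71), also act on reactive or foreign compounds. The list of NRF2 and metal response genes, which holds AKR1B10, had a median of -0.03 over 24 members with AKR1B10 alone counted. CLIC3 (1.83), CMKLR2, a receptor of chemerin (1.72), ADAMTS15, a secreted protease (1.70), MALL (1.69) and C11orf87 (1.68) complete the 15 highest at 5 CPM or more with SMAD6, ID4, RFLNB, ATOH8 and ID3. CRYAB, a small heat shock protein, was higher by 1.36 and was the 1 counted member of 18 heat shock genes (median 0.14).

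Mitotic genes were higher throughout the list by a smaller amount. All 45 tested members had a positive difference, 44 of them in both libraries, and 42 lay above all 6 others, beside 17.4% of all tested genes. The median was 0.63 (1.55-fold), made up of 0.51 in DMSO replicate 3 and 0.77 in DPT replicate 2. The mean log2 CPM of the list was 6.42 to 6.47 in the other DMSO and 6.29 to 6.47 in the other DPT libraries, and 7 and 7.13 in the pair. KIF20A (ENSG00000112984, chr5:138178719-138187715), a kinesin of cytokinesis, read 126.9, 124.6 and 136.3 CPM and 138.2, 118.8 and 131.4 CPM outside the pair, and 248.2 and 282.3 CPM inside it (1.03). CCNB1, cyclin B1, read 175.3 to 188.5 CPM and 193.9 to 220.1 CPM outside, and 327.9 and 423.9 CPM inside (0.93). The counted members were KIF20A, CENPE, a kinetochore motor (1.09), and ANLN, the scaffold anillin (1.02), the last named after its values were seen. CDC20, the activator of the anaphase-promoting complex shown above, read 117.2 to 124.7 CPM and 134.0 to 153.4 CPM outside and 213.3 and 288.5 CPM inside. MKI67, the proliferation antigen Ki-67, differed by 0.52.

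Replication genes moved less. Of 50 tested members 41 were higher in both libraries and 26 lay above all 6 others, beside 37.9% and 17.4% of all tested genes. The median was 0.27, with 0 counted. CCNE1, cyclin E1, was farthest out, at 9.93 and 7.73 CPM in the pair against 4.28 to 5.32 CPM. MCM2, a subunit of the replicative helicase, overlapped the others, with 172.1 and 140.0 CPM against 173.7 to 188.4 CPM in the other DMSO and 139.2 to 158.0 CPM in the other DPT libraries. Tubulin genes, whose products are the target of DPT, had a median of 0.50 over 12 members. Of these, 10 were higher in both libraries (37.9% of all genes) and 8 lay above all others (17.4% of all genes). TUBA4A read 102.4 to 108.2 CPM and 72.5 to 87.2 CPM outside the pair, and 224.0 and 162.7 CPM inside (1.06). The tubulin displacement was 0.49 in DMSO replicate 3, which had no DPT, and 0.48 in DPT replicate 2. Some tubulin isotypes are near-identical, so their single values are uncertain.

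**Figure D3:**
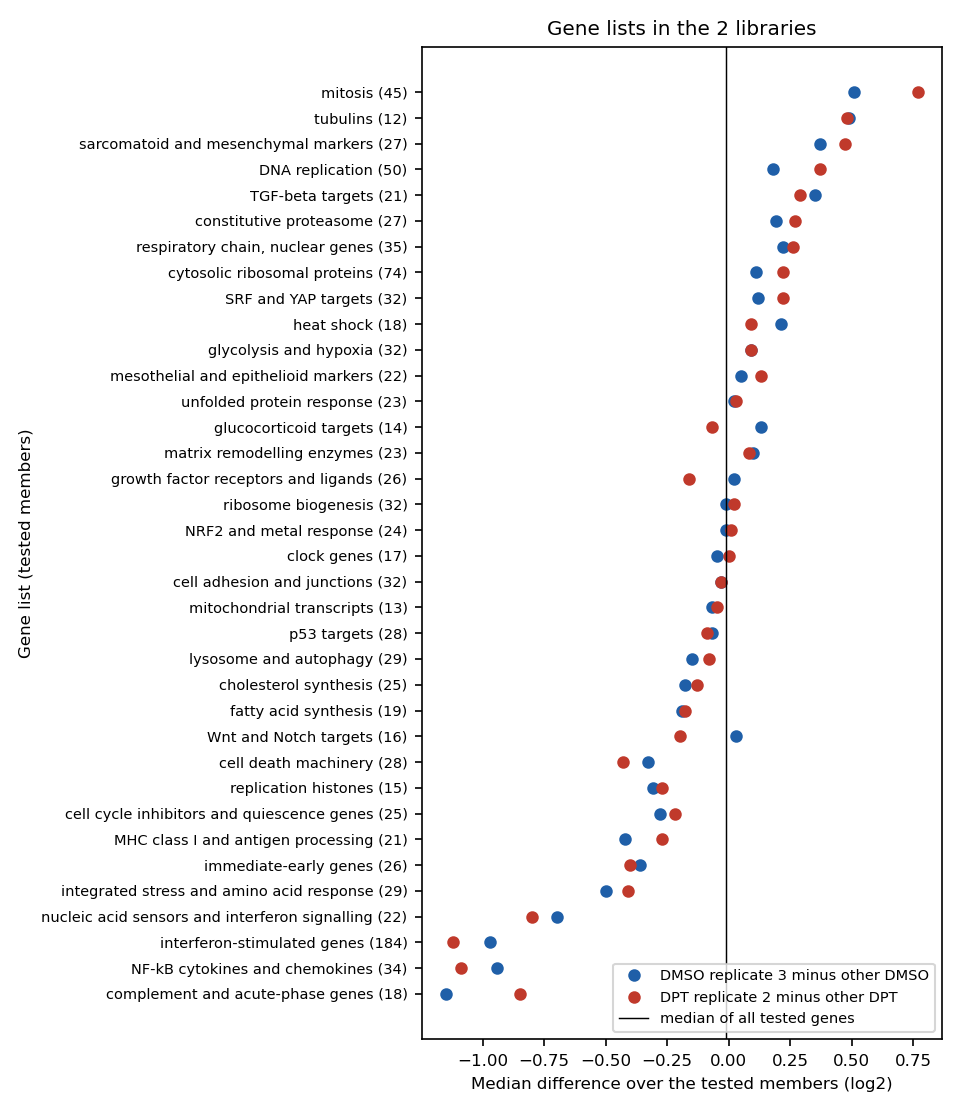
Median log2 difference of each gene list with at least 12 tested members, for DMSO replicate 3 against the other DMSO libraries (blue) and DPT replicate 2 against the other DPT libraries (red); the vertical line is the median of all tested genes. Complement, NF-kB and interferon lists lay lowest, near -1, and mitosis and tubulin lists highest, near 0.5 or above, in both libraries.

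Lists of general cell functions were displaced by small amounts that the 2-fold rule did not count. The constitutive proteasome had a median of 0.24, with all 27 members higher in both libraries and 23 above all others (17.4% of all genes). Nuclear genes of the respiratory chain had a median of 0.23, with 33 of 35 higher in both libraries, and the 74 ribosomal protein genes had a median of 0.18, with 56 higher in both, beside 37.9% of all genes. For ribosomal proteins the mean level of DMSO replicate 3, a log2 CPM of 7.83, lay under the 7.87 of DMSO replicate 2. Transcript length moved with the pair: over 12602 genes with a length, the Spearman correlation of the difference with the longest annotated transcript was -0.19, as a description. It was -0.13 in DMSO replicate 3 and -0.23 in DPT replicate 2, and ran from -0.04 to 0.20 in the other libraries. The values of the others come from deviations from a treatment mean that included the library of the pair. A trend in that library pushes them the opposite way, so they are not independent of it. In 5 groups of equal size by length, the shortest, with a median length of 1678 bases, had a median difference of 0.10 and the longest, with 7777 bases, of -0.11. With a trend over length taken off each library, an alternative chosen after the data were seen, the median of the ribosomal proteins was 0.09, of the proteasome 0.19, of the respiratory chain 0.19, of mitosis 0.61, of tubulins 0.45 and of the NF-kB list -1.07. Beyond the interferon type it left 106 genes counted as higher and 202 as lower.

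Markers of other cell types gave few values. Of 18 leukocyte markers, 2 passed the filter, and both were lower in the pair: CD14, a receptor for lipopolysaccharide, read 14.3 to 26.3 CPM outside and 7.42 and 5.39 CPM inside, and CD68 read 99.8 to 128.1 CPM outside and 82.9 and 87.9 CPM inside. The leukocyte markers TYROBP and MS4A1 had 0 counts in all 8 libraries, and PTPRC, the pan-leukocyte antigen CD45, had 3 to 9 counts. Of 12 endothelial markers 6 passed, all lower in both libraries, with a mean log2 CPM of 1.01 in DMSO replicate 3 and 1.71 in DPT replicate 2 against 1.63 to 1.83 in the other DMSO and 2.59 to 2.79 in the other DPT libraries. VWF, a defining endothelial marker, had 0 to 5 counts. Of 14 fibroblast markers 7 passed, 6 of which stand also on the mesenchymal list, and all 7 were higher in both libraries, with list means of 4.82 and 4.03 in the pair against 4.33 to 4.44 and 3.25 to 3.61 in the other DMSO and DPT libraries. DCN and LUM, which mark fibroblasts, had 0 counts in all 8 libraries. The part of other cells in these values was not tested.

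As the pair held both treatments, the difference between DPT and DMSO inside it could be set against that outside. A treatment-by-pair interaction was tested with edgeR's quasi-likelihood test (two-sided, Benjamini-Hochberg over all tested genes), with the spread taken from the other 6 libraries on 4 residual degrees of freedom. At an adjusted p under 0.05 it called 119 genes (0.941% of those tested). The DPT-minus-DMSO value was larger inside the pair for 53 (0.419%) and smaller for 66 (0.522%). A call says that DMSO replicate 3 and DPT replicate 2 were displaced by unequal amounts, whether through DPT or through any other difference between these 2 libraries. Each treatment inside the pair is a single library chosen from its expression and assumed to vary like the other 6, so the p-values compare these libraries and not the treatments. Without DPT replicate 1 the calls were 138 and 137, and without DPT replicate 4 they were 35 and 48, so the number of calls rests on single libraries.

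Interferon-type genes held 36 of the 119 calls, 29 of them negative, and 33 of the 36 were lower in both libraries. On the list of interferon-stimulated genes, 31 of 184 were called, 29 of them negative. IFIT1, an antiviral RNA-binding protein, read 1093, 1098 and 1093 CPM in the other DMSO and 1055, 1078 and 1058 CPM in the other DPT libraries, 263.9 CPM in DMSO replicate 3 and 164.3 CPM in DPT replicate 2. Its interaction was -0.64. RSAD2, viperin, had -0.78, USP18, the protease of ISG15, -0.95, and PARP14 -0.55. All 4 read lower in DPT replicate 2 than in DMSO replicate 3. The levels of interferon genes chose the pair, so these calls describe its libraries and no p is given here.

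Beyond the interferon type, 83 genes were called, and in 41 of them the 2 libraries were displaced in opposite directions. Of all 12648 tested genes, 3084 were displaced in opposite directions. The interaction is the gap between the 2 displacements, so a call favours opposite directions, and this split describes the calls. IGFBP5 (ENSG00000115461, chr2:216672105-216695525), a binding protein of insulin-like growth factors, had the smallest p. It read 130.5, 128.4 and 130.1 CPM in the other DMSO and 89.9, 73.2 and 77.5 CPM in the other DPT libraries. In the pair it read 42.7 CPM in DMSO replicate 3 and 69.2 CPM in DPT replicate 2, an interaction of 1.39. IGFBP5 was lower in DPT outside the pair and higher in DPT replicate 2 than in DMSO replicate 3. CHI3L1, a secreted chitinase-like protein, read 105.9, 114.9 and 116.6 CPM in the other DMSO and 49.5 to 55.6 CPM in the other DPT libraries. It read 51.2 and 52.5 CPM in the pair, an interaction of 1.11. Here DMSO replicate 3 already lay at the level of the DPT libraries.

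NRP2, a semaphorin and VEGF-C receptor, read 34.6 to 38.7 CPM in the other DMSO and 70.4 to 73.7 CPM in the other DPT libraries. It read 58.3 and 53.3 CPM in the pair, an interaction of -1.121. HECW2, a ubiquitin ligase, read 7.59 to 9.21 CPM and 32.4 to 43.3 CPM outside the pair, and 15.8 and 22.1 CPM inside (-1.746). DUSP10, a phosphatase of p38 and JNK, read 13.3 to 15.2 CPM and 33.1 to 33.8 CPM outside, and 27.3 and 29.2 CPM inside (-1.14). TNC, the matrix protein tenascin C, read 330.6 to 353.6 CPM and 470.3 to 528.5 CPM outside, and 337.3 and 304.1 CPM inside (-0.69). In NRP2, HECW2 and DUSP10 the levels inside the pair lay between those of the other DMSO and the other DPT libraries, so the gap between treatments was narrower inside than outside. TGM2, among the lowest genes of the pair, was called with 1.24, and DSP with -0.62. As the pair was picked on the expression of all genes, the calls beyond the interferon type also describe its libraries, and no p is given.

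**Figure D4:**
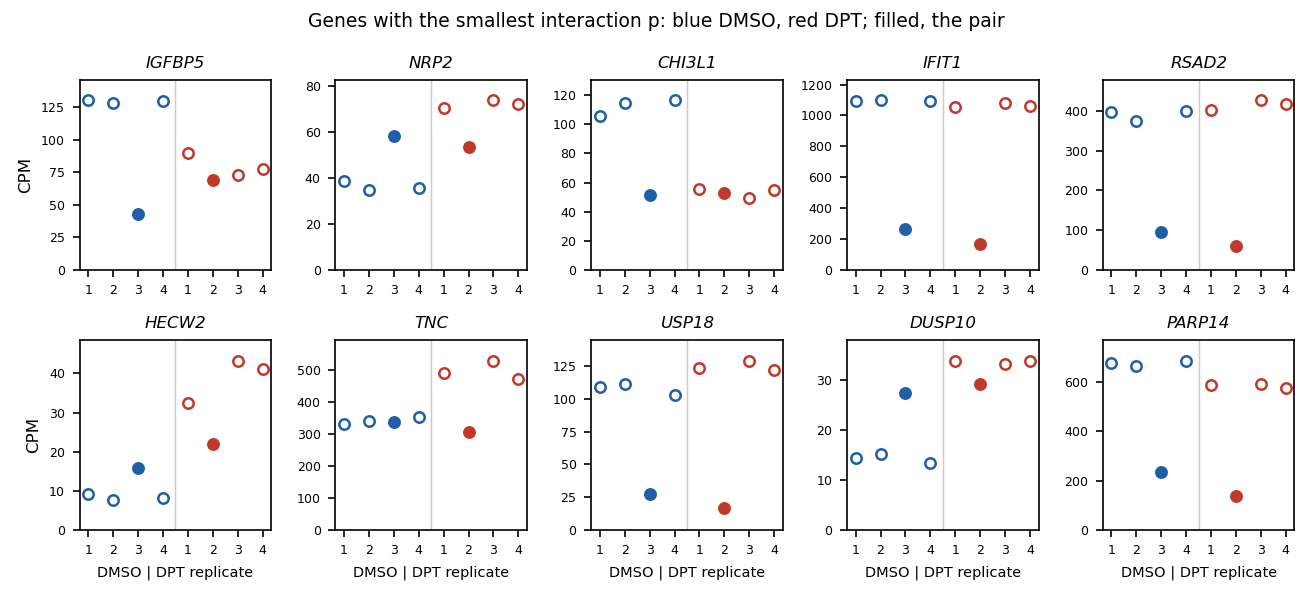
Level in CPM of the 10 genes with the smallest interaction p in each of the 8 libraries; filled points are DMSO replicate 3 and DPT replicate 2. IFIT1, RSAD2, USP18 and PARP14 were low in both filled points and lowest in DPT replicate 2, whereas for NRP2, HECW2 and DUSP10 both filled points lay between the open points of DMSO and of DPT.

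Most of the DPT response kept its direction inside the pair. In the other 6 libraries alone, edgeR called 2158 genes higher (17% of 12697 tested) and 2169 lower (17.1%) in DPT. Of the 258 called genes at least 2-fold higher that could be read in all libraries, 223 (86.4%) were higher in DPT replicate 2 than in DMSO replicate 3, with a median of 0.70 inside the pair against 1.36 outside. Of the 127 at least 2-fold lower, 112 (88.2%) were lower inside, with medians of -0.73 and -1.25. The genes were chosen for their size outside the pair, which favours larger values there, and the inside value is 1 library minus 1 library with no error of its own. Without a bound on size, 1827 of 2139 higher genes (85.4%, medians 0.22 and 0.34) and 1881 of 2165 lower genes (86.9%, medians -0.21 and -0.32) had the same direction inside.

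The counted genes were spread over the genome. Their share of tested genes per chromosome ran from 0.855% on chromosome 16 to 5.38% on chromosome 4, against 3.46% over all. Over runs of 41 neighbouring tested genes the median difference ran from -0.33 to 0.23. The lowest run lay at chr19:43506719-45305283, where 20 of the 41 genes have ZNF or ZFP symbols and 0 were counted. By the deposited transcription factor families, the 531 tested C2H2 zinc finger genes had a median of -0.15, with 386 negative and 5 counted. The 45 ZBTB genes had a median of -0.18, with 41 negative. Of all 12648 tested genes, 6438 were negative and 3.46% were counted. The 50 helix-loop-helix genes, which include the ID genes, had a median of -0.06 with 5 counted as higher and 2 as lower. Of all tested genes, 0.854% were counted as higher and 2.61% as lower. All 1141 transcription factor genes had a median of -0.14 against -0.01 for all tested genes.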

How the data were processed

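Expression was measured by poly(A) RNA sequencing in 8 libraries. Per the file headers, the deposited table holds a count and an FPKM for each gene and library. Of these deposited counts 10.8% were not whole, which is the form of expected counts (estimated by a model). FPKM as deposited is scaled by gene length and library size, and was used as an alternative alone. The genome build was hg38, and the tools named are RSEM, StringTie 1.3.1, HISAT2, DESeq2 and fastp 0.18.0, all per the submitters' processing notes. No source used here gives their settings or the use of strand in counting, so overlapping and antisense genes may share reads.

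Expected counts were rounded and fitted with edgeR 4.0.16 in R 4.3.3 (filterByExpr with a minimum count of 10 and total of 15, TMM, intercept, treatment and pair). Levels are TMM-scaled CPM, which compare libraries for 1 gene and not genes with each other. Differences are fitted log2 values, pair minus others; no p is given for them. The fits were tested on simulated counts with known changes. Alternatives are given in the closing section; they used DESeq2 1.42.0 and limma 3.58.1.

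The pair, the gene lists and the tests were chosen with earlier results of these data known. The rule for named genes took, among symbols used once averaging 5 CPM or more in the pair or outside it, the 15 highest and 15 lowest counted genes beyond the interferon type, the 5 lowest interferon-stimulated genes, up to 2 counted members per list and direction or else its farthest member, the 10 genes with the smallest interaction p, interferon receptors and 8 set genes. Some genes that the rule takes are not reported here. Of 43 lists, those with at least 12 tested members are in the plot of list medians. Gene positions are from GENCODE release 29 (GRCh38). Deviations from the treatment mean had correlations of 0.20, -0.31, -0.40 and 0.21 between same-numbered DMSO and DPT libraries, and 0.68 between DMSO replicate 3 and DPT replicate 2. The treatment mean included the library of the pair, so a library of the pair set against any other library gave a negative value. Outside the pair, same-numbered libraries gave 0.20 and 0.21 and differently numbered ones 0.13 to 0.24, so same-numbered ones were no closer. For replicates 2 and 3 the correlations cannot show whether the number pairs the libraries.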

Additional observations from a re-analysis of the deposited data

Results flagged for a closer look

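Some libraries lay far from the other 3 of their treatment (the gap to the nearest other library, as a share of the range over 4 libraries, passed Dixon's 95% critical value, which chance does in about 1 of 20 groups). The pair was chosen for standing apart, so its own flags describe the choice: over 43 gene lists the mean level was flagged with DMSO replicate 3 apart in 18 and with DPT replicate 2 apart in 9, and over 97 named genes in 62 and 48. Other libraries gave 5 flags. The share of mitochondrial counts set DPT replicate 1 apart (0.884 of the range), the list of mitochondrial transcripts set DMSO replicate 2 apart (0.861), MSLN set DMSO replicate 1 apart (0.982), IFNGR2 set DMSO replicate 4 apart (0.849) and MCM2 set DPT replicate 1 apart (0.848).

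The difference between DPT and DMSO differed between the pair and the other 6 libraries in 119 genes by edgeR's interaction test, and 1505 genes had an unadjusted p under 0.05. The 10 genes with the smallest p were IGFBP5 (1.39), NRP2 (-1.12), CHI3L1 (1.11), IFIT1 (-0.64), RSAD2 (-0.78), HECW2 (-1.75), TNC (-0.69), USP18 (-0.95), DUSP10 (-1.14) and PARP14 (-0.55), on the log2 scale.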

How the results depend on the processing

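Only 89 named genes were followed through the alternatives, many of them chosen for large differences. No counted gene among these changed sign under any alternative run that held it. The other counted genes were not compared for sign. The medians of the interferon-stimulated, NF-kB, complement and mitosis lists kept their sign. Gene differences moved by at least the SD within treatments of the other 6 libraries in 194 comparisons and by less in 1401. For list medians these numbers were 140 and 584. For genes not counted and lists with small medians, the sign was not compared. The counts moved with the fold and the filter. Genes higher and lower in the pair numbered 440 and 760 at 1.5-fold (431 and 590 beyond the interferon type), 25 and 132 at 3-fold (24 and 71), 58 and 192 with a mean of at least 5 CPM (57 and 95), 41 and 148 with the deposited FPKM on the log2(FPKM + 1) scale (40 and 62), and 194 and 436 with no filter on low counts (190 and 320). DESeq2, its size factors and library totals left the counts within 1.5 times and moved the median of all genes by 0.006 at most. With 1 library left out in turn, higher genes ran from 117 to 189 (114 to 186 beyond the interferon type) and lower genes from 345 to 509 (235 to 389); the most higher genes came without DPT replicate 2 and the most lower genes without DMSO replicate 3, when only 1 library had to lie outside the range. Genes displaced 2-fold in both libraries, 312 in the same and 6 in opposite directions, numbered 184 and 0 with the stricter filter, 147 and 0 with FPKM, 404 and 65 with no filter, and 313 to 328 and 11 to 18 with 1 library left out. For the interaction, no filter gave 110 positive and 108 negative calls, and leaving out 1 of the other 6 libraries 35 to 138 and 48 to 137; it could not be fitted without a library of the pair. Calls of the DPT response ran from 1699 to 2166 higher, 1703 to 2275 lower and 2960 to 3762 in the same direction inside the pair.

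Whether same-numbered libraries share more than a number could not be worked out. A fit with the replicate number as a block (replicate block) counted 121 higher and 331 lower genes and called 16 positive and 40 negative interactions; 6 of the 10 named interaction genes (NRP2, CHI3L1, RSAD2, HECW2, TNC and PARP14) kept their direction and passed no threshold there, with adjusted p from 0.145 to 0.595 (edgeR).

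Depth limits the genes with few counts per library, such as KRT5, ZBP1 and the interferon ligands, for which the size of a difference is uncertain.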
